A study of Mus musculus with 4 samples.

Results

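The genes described here are 40 regulators of the cell division cycle in mouse embryonic stem (ES) cells: cyclins, cyclin-dependent kinases (CDKs), CDK inhibitors, pocket proteins, E2F transcription factors, and kinases, phosphatases and activators of mitosis. They are matched by symbol to a list of known regulators, which was drawn up with earlier results of these data known, and all 40 were found among the 37224 Ensembl gene identifiers of the deposited tables. All 40 also passed the filter on low counts that left 20895 genes for testing. By role, 24 act in G1 or at entry into S phase, 15 act in S phase, G2 or mitosis, and 1, Ccng2, is a noncanonical cyclin outside both classes.

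RNA was sequenced from Smg6-deficient ES cells (2 libraries) and from wild-type ES cells, which the titles call normal (2 libraries). Smg6 cuts mRNAs near a premature stop codon in nonsense-mediated mRNA decay (NMD). The labels used here name no strain, sex, clone, passage or culture condition for either group, nor the lesion in Smg6, and they leave unsaid whether replicates were grown separately. The p-values therefore reflect how far these libraries varied, and that variation may be purely technical.

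A cell passes from G1 into S phase when CDKs bound to D-type and E-type cyclins phosphorylate the pocket proteins Rb1, Rbl1 and Rbl2. This releases E2F factors, which switch on genes of DNA replication. Entry into mitosis is driven by Cdk1 bound to cyclins A and B, held back by Wee1 and Pkmyt1 and released by Cdc25 phosphatases. Mouse ES cells are known for a short G1 phase, with strong Cdk2 and cyclin E activity and low levels of many CDK inhibitors.

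Levels are given as CPM, the read count relative to the TMM-scaled library size, as mean ± SD over 2 libraries unless each library is named. Fold changes are log2 values of Smg6-deficient over wild type with their standard error (SE). Each adjusted p is that of the quasi-likelihood test in edgeR, corrected by Benjamini-Hochberg over all 20895 genes, and a gene is said to have risen or fallen where this value was under 0.05. Deposited counts summed to 155391181 and 137937779 in the Smg6-deficient libraries and to 137643993 and 130888768 in the wild-type libraries. Smg6 itself had 87.6 and 86.2 CPM in Smg6-deficient and 95.7 and 105.1 CPM in wild-type replicates 1 and 2, which did not pass (log2 fold change -0.21, SE 0.083, edgeR adjusted p = 0.089). Since the lesion is not named and reads were counted over the whole gene, this value does not check the genotype labels. All 11 ES cell markers were detected, with summed levels of 3635 and 3551 CPM in Smg6-deficient and 5500 and 4725 CPM in wild-type libraries. The 14 endoderm markers summed to 1569 and 2469 CPM in Smg6-deficient libraries, against 325.2 and 277.5 CPM in wild-type libraries. Most of these sums came from Lama1 and Col4a1. Lama1 had 612.1 and 996 CPM in Smg6-deficient and 71.3 and 59.3 CPM in wild-type libraries. Col4a1 had 680.9 and 952.8 CPM in Smg6-deficient and 211.6 and 185.6 CPM in wild-type libraries. The 12 fibroblast markers summed to 1573 and 1446 CPM in Smg6-deficient and 1250 and 900.1 CPM in wild-type libraries, and no marker of these lists was at 0 in all libraries. Of the ES cell markers 2 rose and 7 fell, and of the endoderm markers 11 rose and 2 fell. Of the fibroblast markers 4 rose and 0 fell. Against 39.7% of all tested genes, the share called was 81.8% of ES cell, 92.9% of endoderm and 33.3% of fibroblast markers. The part of such cells in the results below was not tested, and in bulk RNA a change in the share of a cell type and a change in RNA per cell cannot be told apart.

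Of the 40 regulators, 6 rose and 14 fell in Smg6-deficient cells, and 20 did not pass. The log2 fold changes lay between -0.84 and 1.07, and 2 members, Cdk6 and Ccnd2, passed with a difference of at least 2-fold, against 13.5% of all tested genes. With the gene length correction neither reached 2-fold (log2 fold changes of 0.99 for Cdk6 and 0.88 for Ccnd2), and Ccnd2 did not with DESeq2 size factors (0.99). Over all tested genes 20.5% rose and 19.2% fell, so that 39.7% were called, against 50.0% of the 40. All 40 lie on autosomes, and of the 19430 tested autosomal genes 21.6% rose and 17.3% fell. Among the 13803 tested genes at least as abundant as the lowest member, 46.0% were called. The median log2 fold change was -0.16 over the 40 members and 0.0080 over all tested genes. In 31 of the 40 members both Smg6-deficient libraries lay on the same side of both wild-type libraries, 11 higher and 20 lower, against 73.2% of all tested genes (37.3% higher and 35.9% lower). Leaving out either Smg6-deficient library reduced the number of members that fell, and fewer of all tested genes rose and fell in these fits as well. Without wild-type replicate 2, more members rose and more fell, as did more of all tested genes.

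**Figure D1:**
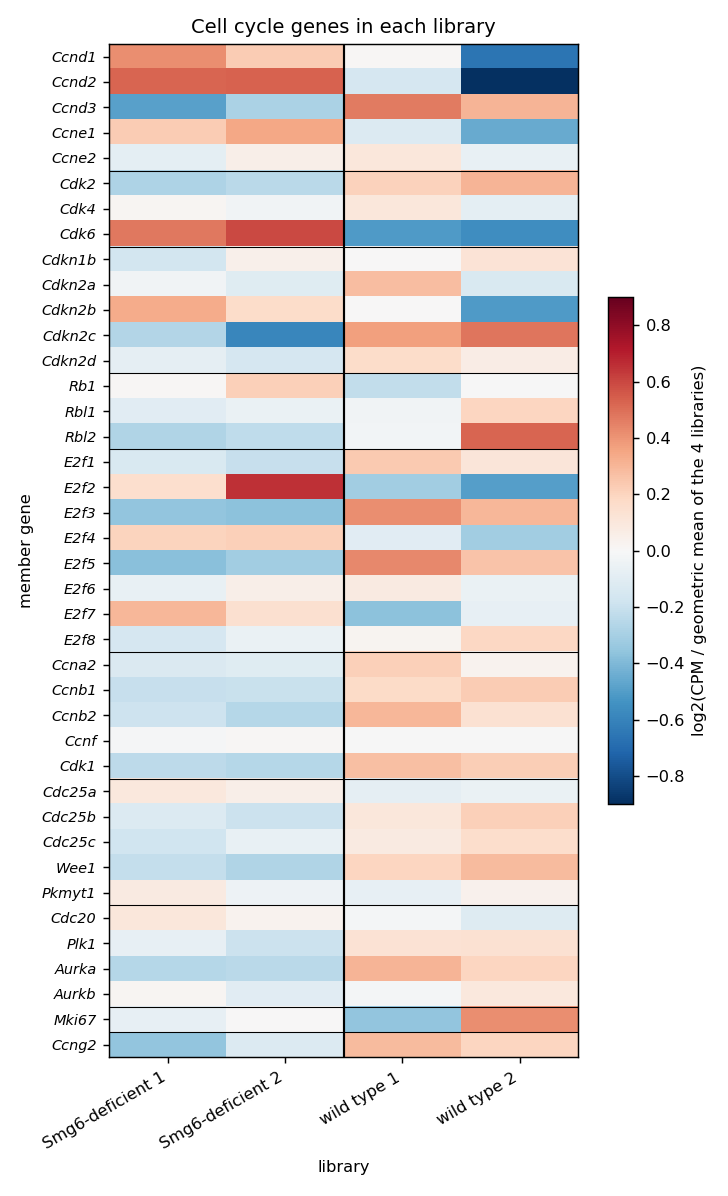
Level of each of the 40 genes in each library, as the log2 ratio of its CPM to the geometric mean of the 4 libraries (colour), with genes in rows grouped by role and libraries in columns, Smg6-deficient left of wild type. The values run from -0.90 to 0.66. Ccnd2, Cdk6 and E2f2 are high in both Smg6-deficient libraries and Ccnd3, E2f3, Cdk1 and Aurka in both wild-type libraries, while Mki67 differs most between the wild-type libraries.

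Of 24 G1 regulators 6 rose (25%) and 6 fell (25%), against 20.5% and 19.2% of all tested genes. Their median log2 fold change was -0.076, with a range from -0.84 to 1.07. Of the 15 S and mitotic genes 0 rose and 7 fell, with a median of -0.25 and a range from -0.50 to 0.14. The 7 that fell make up 46.7% of the class, against 19.2% of all tested genes that fell. At an unadjusted p under 0.05 the number that rose was also 0, as it was with the DESeq2 Wald test, limma-voom and limma-trend, and Mki67 alone rose when wild-type replicate 2 was left out. Fewer genes of this class fell in the fits without Smg6-deficient replicate 1 or without replicate 2. Fewer of all tested genes fell in those fits too, so the drop was not particular to the class. No test of the difference between the classes was made, because the members were chosen with results of these data known.

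**Figure D2:**
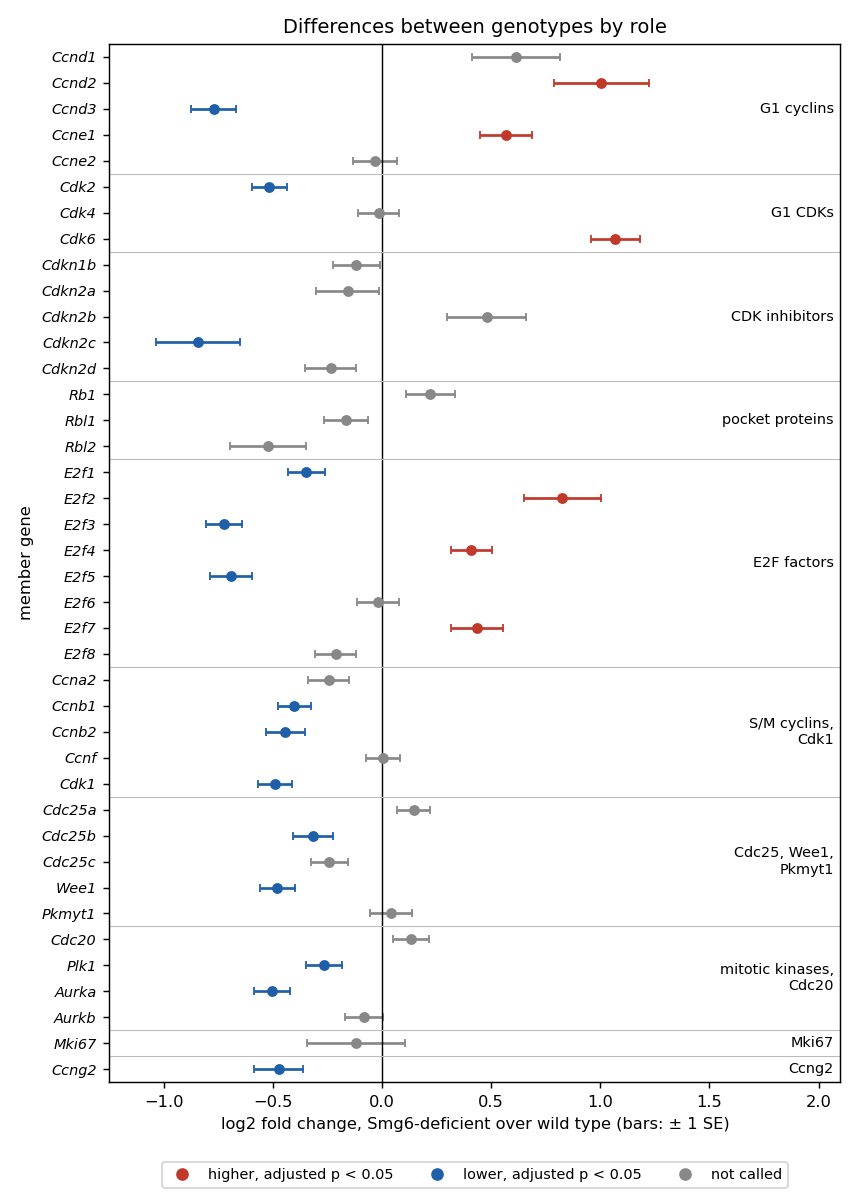
Log2 fold change of each gene, Smg6-deficient over wild type (points), with bars of 1 SE on either side, grouped by role. Red points rose and blue points fell at an adjusted p under 0.05, and grey points did not pass. The G1 cyclins, G1 CDKs and E2F factors have points on both sides of 0, while the coloured points among S and mitotic genes all lie below 0, between -0.27 and -0.50.

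D-type cyclins couple growth signals to the cell cycle by activating Cdk4 and Cdk6. Ccnd3 (GRCm38 chromosome 17) had 134.3 and 154.3 CPM in the Smg6-deficient libraries, against 259.9 and 232.9 CPM in the wild-type libraries. Its fall gave a log2 fold change of -0.77 (SE 0.10, edgeR adjusted p = 0.0019), and both Smg6-deficient libraries lay well under both wild-type libraries. Ccnd2 moved the other way: it had 108.6 and 109.1 CPM in the Smg6-deficient libraries, against 67.9 and 40.6 CPM in the wild-type libraries. Its rise was 1.00 on the log2 scale (SE 0.22, edgeR adjusted p = 0.012), with a gap of 0.74 on that scale between the wild-type libraries. It was 1.44 without wild-type replicate 1 and 0.66 without wild-type replicate 2. Ccnd1 had 205.1 and 179.2 CPM in Smg6-deficient and 154.0 and 97.3 CPM in wild-type libraries. Its log2 fold change of 0.61 (SE 0.20) narrowly missed the threshold (edgeR adjusted p = 0.0504), although the groups did not overlap. It passed by the DESeq2 Wald test (0.60, DESeq2 adjusted p = 0.0092) and by limma-voom (0.65, limma-voom adjusted p = 0.041), and its value was 1.00 without wild-type replicate 1 and 0.30 without wild-type replicate 2.

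On the RPKM scale, which corrects for gene length and so allows levels of different genes to be set side by side, Ccnd3 made up 46.7% and 52.6% of the summed D-type level in Smg6-deficient libraries, against 70.3% and 77.2% in wild-type libraries. Ccnd1 made up 39.3% and 33.6% in Smg6-deficient and 22.9% and 17.8% in wild-type libraries. Ccnd2 made up 14.0% and 13.8% in Smg6-deficient and 6.80% and 4.99% in wild-type libraries. Ccnd3 was thus the most abundant D-type cyclin in every library, with a smaller share in the Smg6-deficient ones. The summed RPKM of the 3 genes was 116.6 and 112.9 in Smg6-deficient and 155.5 and 119.1 in wild-type libraries. Shares within a library do not depend on scaling between libraries. They are given as a description and were not tested.

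E-type cyclins activate Cdk2 at the G1/S boundary. Ccne1 had 154.5 and 167.4 CPM in the Smg6-deficient libraries, against 120.9 and 96.5 CPM in the wild-type libraries. It rose by 0.57 on the log2 scale (SE 0.12, edgeR adjusted p = 0.011). Its paralog Ccne2 averaged 32.8 ± 2.25 CPM in Smg6-deficient and 33.5 ± 2.70 CPM in wild-type cells, and its log2 fold change of -0.034 (SE 0.10) turned positive without Smg6-deficient replicate 1 (0.044) or wild-type replicate 1 (0.064). Ccne1 accounted for 86.7% and 86.5% of the E-type RPKM in Smg6-deficient and 81.7% and 80.0% in wild-type libraries, so it was the main E-type cyclin in all 4. The rises of Ccnd2 and Ccne1 did not pass with limma-trend on log2(RPKM + 1) (limma-trend adjusted p = 0.056 for Ccnd2 and 0.065 for Ccne1).

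Among the kinases that these cyclins activate, Cdk6 rose and Cdk2 fell. Cdk6 (chromosome 5) had 13.2 and 14.3 CPM in the Smg6-deficient libraries and 6.65 and 6.45 CPM in the wild-type libraries. Its log2 fold change of 1.07 (SE 0.11, edgeR adjusted p = 0.00087) was the highest of the 40, from a low level. Cdk2, the partner of cyclins E and A, had 77.7 and 79.7 CPM in the Smg6-deficient libraries, against 108.7 and 116.6 CPM in the wild-type libraries. It fell, with a log2 fold change of -0.52 (SE 0.080, edgeR adjusted p = 0.0033). Cdk4 averaged 363.5 ± 8.50 CPM in Smg6-deficient and 367.4 ± 33.1 CPM in wild-type cells, with overlapping libraries and a log2 fold change of -0.015 (SE 0.093). Cdk4 held 97.0% and 96.6% of the joint RPKM of Cdk4 and Cdk6 in Smg6-deficient libraries and 98.5% and 98.4% in wild-type libraries, so the higher Cdk6 level stayed a small part of the pair.

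Of the 5 CDK inhibitors 1 passed (20%), against 39.7% of all tested genes. Cdkn2c, an INK4 inhibitor of Cdk4 and Cdk6, had 1.63 and 1.30 CPM in the Smg6-deficient libraries and 2.53 and 2.74 CPM in the wild-type libraries. The counts behind these were 248 and 176 in Smg6-deficient and 354 and 366 in wild-type libraries. It fell, with a log2 fold change of -0.84 (SE 0.19, edgeR adjusted p = 0.014), the lowest of the 40, and it did not pass without Smg6-deficient replicate 2 (-0.68, edgeR adjusted p = 0.117). On the log2(RPKM + 1) scale its difference was -0.34. Cdkn2b, the INK4 gene beside Cdkn2a, is known as a target of TGF-beta signals. It had 12.7 and 11.3 CPM in Smg6-deficient and 10.1 and 7.09 CPM in wild-type libraries, and did not pass (log2 fold change 0.48, edgeR adjusted p = 0.076). It passed under 4 of 17 alternatives, among them the DESeq2 Wald test (0.47, DESeq2 adjusted p = 0.047), and its value was 0.77 without wild-type replicate 1 (edgeR adjusted p = 0.0013) and 0.23 without wild-type replicate 2. Cdkn2a, which encodes an INK4 inhibitor and, from an alternative reading frame, Arf, had 25.29 and 24.01 CPM in Smg6-deficient and 31.4 and 23.5 CPM in wild-type libraries. A gene-level count does not separate these products, and the gene did not pass (log2 fold change -0.16, SE 0.14). Its value was 0.081 without wild-type replicate 1, and -0.37 without wild-type replicate 2, which passed (edgeR adjusted p = 0.012). Cdkn1b, a CIP/KIP inhibitor of Cdk2 complexes, had 24.3 and 28.1 CPM in Smg6-deficient and 27.3 and 29.6 CPM in wild-type libraries, and did not pass (log2 fold change -0.12). Cdkn2d, another INK4 inhibitor, had 7.85 and 7.49 CPM in Smg6-deficient and 9.34 and 8.71 CPM in wild-type libraries, and did not pass either (log2 fold change -0.24). By RPKM, Cdkn2a was the most abundant INK4 gene in every library, with 57.6% and 58.6% of the INK4 sum in Smg6-deficient and 63.3% and 60.8% in wild-type libraries.

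None of the 3 pocket proteins passed (edgeR, 0 at an adjusted p under 0.05), against 39.7% of all tested genes. At an unadjusted p under 0.05 the number was 1, Rbl2, which the DESeq2 Wald test also called. Rb1, the retinoblastoma protein, had 63.0 and 72.5 CPM in Smg6-deficient and 53.7 and 62.6 CPM in wild-type libraries, a log2 fold change of 0.22 (SE 0.11) that passed without wild-type replicate 2 (0.32, edgeR adjusted p = 0.031). Rbl1 averaged 42.8 ± 0.905 CPM in Smg6-deficient and 48.0 ± 5.32 CPM in wild-type cells (log2 fold change -0.16), and passed with the correction for gene length (-0.28, edgeR adjusted p = 0.045), with that correction and the replicate block, and without wild-type replicate 1 (-0.26, edgeR adjusted p = 0.026). Rbl2, the pocket protein that binds E2f4 in resting cells, had 20.7 and 21.2 CPM in Smg6-deficient and 24.4 and 35.8 CPM in wild-type libraries, so the wild-type libraries differed more from each other than the nearer one did from the Smg6-deficient ones. Its log2 fold change was -0.52 (SE 0.17, edgeR adjusted p = 0.052). It passed under 10 of 17 alternatives, with values such as -0.53 by the DESeq2 Wald test (DESeq2 adjusted p = 0.0105) and -0.76 without wild-type replicate 1 (edgeR adjusted p = 0.00024). Rb1 held 51.2% and 53.9% of the family's RPKM in Smg6-deficient libraries, against 45.0% and 43.0% in wild-type libraries.

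The E2F family was split, with 3 of 8 rising, 3 falling and 2 not passing. That is 37.5% rising and 37.5% falling, against 20.5% and 19.2% of all tested genes. Among the activators, which drive S-phase genes when free of pocket proteins, E2f3 had 51.0 and 50.5 CPM in the Smg6-deficient libraries and 87.2 and 80.2 CPM in the wild-type libraries. The gene fell, at a log2 fold change of -0.72 (SE 0.082, edgeR adjusted p = 0.0011). E2f1 averaged 50.7 ± 1.81 CPM in Smg6-deficient and 64.5 ± 3.93 CPM in wild-type cells and also fell (-0.35, SE 0.085, edgeR adjusted p = 0.019), but not when Smg6-deficient replicate 1 or replicate 2 was left out (edgeR adjusted p of 0.104 and 0.194). The third activator rose: E2f2 had 14.9 and 21.1 CPM in the Smg6-deficient libraries, against 10.8 and 9.50 CPM in the wild-type libraries (0.83, SE 0.18, edgeR adjusted p = 0.012). It did not pass with limma-trend on log2(RPKM + 1), where its difference was 0.53 (limma-trend adjusted p = 0.057).

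The pocket protein partners E2f4 and E2f5, which mainly repress, moved in opposite directions. E2f4 had 201.7 and 204.4 CPM in the Smg6-deficient libraries and 163.9 and 141.9 CPM in the wild-type libraries, a rise of 0.41 on the log2 scale (SE 0.094, edgeR adjusted p = 0.014). E2f5 had 25.2 and 26.3 CPM in the Smg6-deficient libraries and 44.1 and 39.1 CPM in the wild-type libraries, with a log2 fold change of -0.69 (SE 0.097, edgeR adjusted p = 0.0024). The atypical repressor E2f7, which binds DNA without a dimer partner, averaged 48.4 ± 3.73 CPM in Smg6-deficient and 35.8 ± 5.13 CPM in wild-type cells and rose by 0.44 on that scale (SE 0.12, edgeR adjusted p = 0.028). Its relative E2f8 (log2 fold change -0.21, SE 0.093) and the Polycomb-associated E2f6 (-0.018, SE 0.095) did not pass, although E2f8 did under 3 of 17 alternatives, among them leaving out wild-type replicate 1 (-0.28, edgeR adjusted p = 0.023). On the RPKM scale E2f4 was the most abundant E2F gene in all libraries, with 58.4% and 58.0% of the family in Smg6-deficient and 46.4% and 44.5% in wild-type libraries. E2f3 made up 6.13% and 5.95% in Smg6-deficient and 10.3% and 10.4% in wild-type libraries, and E2f5 8.29% and 8.50% in Smg6-deficient and 14.2% and 13.9% in wild-type libraries. The summed RPKM of the 8 genes was 148.7 and 143.8 in Smg6-deficient and 157.5 and 133.6 in wild-type libraries, with overlapping groups. Leaving out Smg6-deficient replicate 1 or replicate 2 ended the call of E2f4, with edgeR adjusted p-values of 0.056 and 0.067. E2f7 did not pass without Smg6-deficient replicate 1 (edgeR adjusted p = 0.128), nor when gene length was corrected for (0.26, edgeR adjusted p = 0.085).

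**Figure D3:**
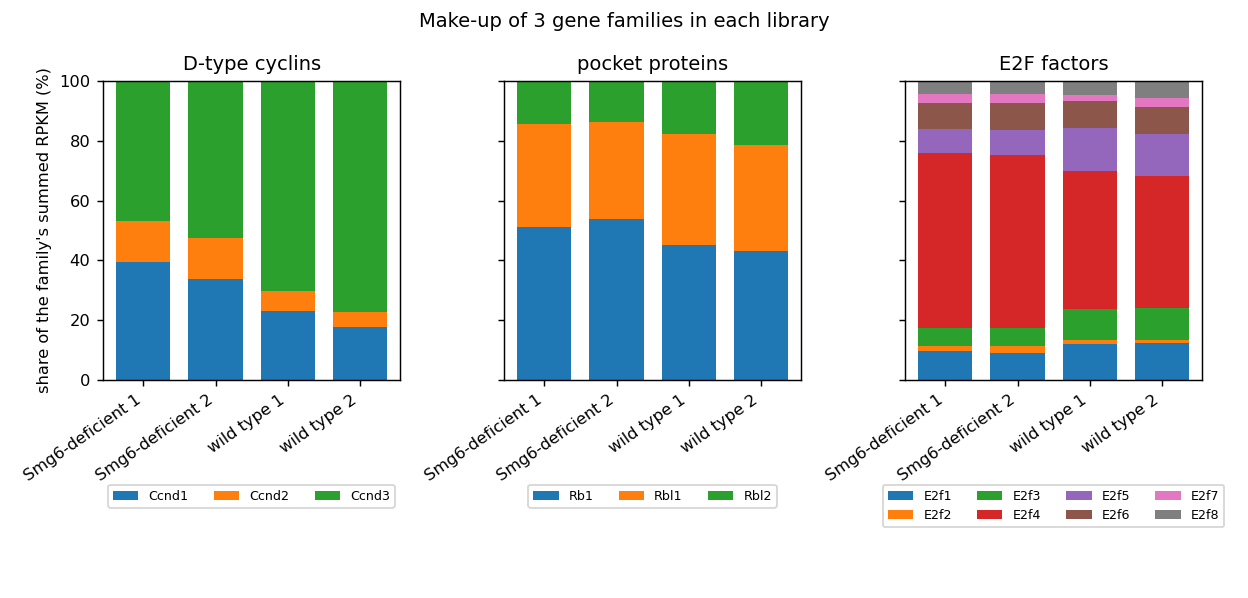
Share of each gene in the summed RPKM of its family (stacked bars, percent) for D-type cyclins, pocket proteins and E2F factors in each library, Smg6-deficient left of wild type. Ccnd3 is the largest D-type segment in every library but smaller in Smg6-deficient (46.7% and 52.6%) than in wild-type libraries (70.3% and 77.2%), and the E2f4 segment is larger in Smg6-deficient (58.4% and 58.0%) than in wild-type libraries (46.4% and 44.5%).

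Mitotic genes are known to share promoter elements, the CCAAT box bound by NF-Y and the cell cycle homology region (CHR) bound by the MuvB complexes. RefSeq promoter windows (GRCm38.p6, 250 bases before to 50 after an annotated start) matched 29 of the 40 genes, 10 of them S and mitotic genes. The windows were searched on both strands for CCAAT, for the CHR letters TTTGAA and for the E2F letters TTTCGCGC and TTTGGCGC, none of which contains another. The 29 genes had 34 windows, and a gene was counted if any of its windows held the letters. The share over all windows counts each window by itself, so it is not a share of genes. All 10 S and mitotic genes with a window held CCAAT, against 10 of 18 G1 regulators and 37.4% of all 32851 windows. TTTGAA was in 7 of these 10, against 5 of 18 G1 regulators and 17.9% of all windows, and it was in 4 of the 6 that fell and 3 of the 4 that did not pass. The E2F letters were in 2 of these 10, in 2 of 18 G1 regulators and in 0.813% of all windows. The stretches before the start of 4 genes that fell and of Cdc20, which did not pass, show how these letters are placed. Capitals mark matches to any of the motifs (ATTGG is CCAAT on the other strand), and each stretch begins 150 bases before the RefSeq start and ends before the first base that RefSeq or GENCODE M21 places in a transcript. They lie at chr9:70421555-70421704 (minus strand) for Ccnb2, chr10:69352939-69353062 (minus) for Cdk1, chr2:172370571-172370720 (minus) for Aurka, chr7:122159285-122159434 (plus) for Plk1 and chr4:118437353-118437493 (minus) for Cdc20.
Ccnb2: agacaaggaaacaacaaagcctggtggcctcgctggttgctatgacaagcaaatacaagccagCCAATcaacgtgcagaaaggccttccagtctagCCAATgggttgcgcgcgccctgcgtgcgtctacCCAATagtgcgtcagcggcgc
Cdk1: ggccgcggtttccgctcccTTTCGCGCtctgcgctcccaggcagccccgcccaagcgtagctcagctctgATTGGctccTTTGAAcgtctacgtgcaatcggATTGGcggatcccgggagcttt
Aurka: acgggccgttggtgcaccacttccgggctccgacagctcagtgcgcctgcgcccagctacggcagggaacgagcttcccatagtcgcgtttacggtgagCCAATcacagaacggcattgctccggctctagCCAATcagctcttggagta
Plk1: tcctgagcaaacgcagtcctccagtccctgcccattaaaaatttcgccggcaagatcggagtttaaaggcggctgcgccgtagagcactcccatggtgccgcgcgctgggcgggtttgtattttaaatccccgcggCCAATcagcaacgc
Cdc20: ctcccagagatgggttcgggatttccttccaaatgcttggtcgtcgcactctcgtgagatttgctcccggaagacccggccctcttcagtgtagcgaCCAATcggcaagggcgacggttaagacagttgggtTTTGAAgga

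CCAAT stands in each of these 5 stretches, and TTTGAA in those of Cdk1 and Cdc20, while that of Cdk1 also holds the E2F letters. In Aurka, Plk1 and Ccnb2, a TTTGAA match lay after the RefSeq start, from base 33, 31 and 5, and is not printed, and Ccnb2 had another that began 167 bases before the start. A match of letters is a description of the sequence and not a binding site, and the genes with these letters include both those that fell and those that did not pass.

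Among Cdk1 and the cyclins of S phase and mitosis, 3 of 5 genes fell (60%), against 19.2% of all tested genes, and 2 did not pass. Cdk1, the kinase of mitotic entry, had 226.7 and 223.9 CPM in the Smg6-deficient libraries, against 322.6 and 311.1 CPM in the wild-type libraries. It fell, with a log2 fold change of -0.49 (SE 0.078, edgeR adjusted p = 0.0036), and the libraries of each group lay close together. Its cyclins fell with it: Ccnb1 averaged 127.1 ± 0.41 CPM in Smg6-deficient and 167.9 ± 4.66 CPM in wild-type cells (-0.40, SE 0.076, edgeR adjusted p = 0.0070). Ccnb2 averaged 158.1 ± 5.11 CPM in Smg6-deficient and 215.0 ± 16.9 CPM in wild-type cells (-0.44, SE 0.088, edgeR adjusted p = 0.0086). Ccna2, which acts in S phase and G2, had 301.5 and 305.6 CPM in Smg6-deficient and 382.8 and 336.6 CPM in wild-type libraries. Its groups did not overlap, but it did not pass (log2 fold change -0.25, SE 0.092, edgeR adjusted p = 0.075). It passed under 6 of 17 alternatives, among them scaling by library size alone (-0.30, edgeR adjusted p = 0.038). Ccnf, the cyclin-like F-box protein that marks substrates for ubiquitination in G2, had 311.4 and 315.2 CPM in Smg6-deficient and 312.7 and 312.6 CPM in wild-type libraries and a log2 fold change of 0.0029 (SE 0.077), whose sign changed with the scaling (-0.054 with library size alone). Ccnb1 did not pass when Smg6-deficient replicate 1 or replicate 2 was left out (edgeR adjusted p of 0.084 and 0.0795), nor did Ccnb2 without replicate 2 (edgeR adjusted p of 0.082).

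The opposed controllers of Cdk1 were not uniform. Wee1, which inhibits Cdk1 by phosphorylation, had 66.1 and 63.6 CPM in the Smg6-deficient libraries and 87.5 and 93.4 CPM in the wild-type libraries. It fell, with a log2 fold change of -0.48 (SE 0.081, edgeR adjusted p = 0.0045), and it just missed the threshold without Smg6-deficient replicate 2 (edgeR adjusted p of 0.0504). The membrane-bound inhibitor Pkmyt1 averaged 25.8 ± 1.59 CPM in Smg6-deficient and 25.1 ± 1.39 CPM in wild-type cells (log2 fold change 0.041, SE 0.098), and its sign changed with scaling by library size alone (-0.016). Among the phosphatases that activate CDKs, Cdc25b averaged 26.0 ± 0.94 CPM in Smg6-deficient and 32.3 ± 1.81 CPM in wild-type cells and fell (-0.32, SE 0.092, edgeR adjusted p = 0.034). It did not pass when Smg6-deficient replicate 1 or replicate 2 was left out (edgeR adjusted p of 0.162 and 0.280) or with no filter on low counts (0.055). Cdc25c, which acts at mitotic entry, averaged 43.8 ± 2.38 CPM in Smg6-deficient and 51.7 ± 1.97 CPM in wild-type cells and did not pass (log2 fold change -0.24, edgeR adjusted p = 0.063), but it did under 9 of 17 alternatives. Cdc25a, which also acts at entry into S phase, had 216.7 and 210.0 CPM in Smg6-deficient and 191.7 and 194.4 CPM in wild-type libraries and did not pass (log2 fold change 0.14, edgeR adjusted p = 0.174), although the groups did not overlap.

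Among the later mitotic regulators, Aurka, the centrosome and spindle kinase, had 229.4 and 232.1 CPM in the Smg6-deficient libraries, against 339.9 and 314.7 CPM in the wild-type libraries. Aurka fell, at a log2 fold change of -0.50 (SE 0.082, edgeR adjusted p = 0.0041). Plk1, the polo-like kinase, had 189.6 and 173.8 CPM in Smg6-deficient and 218.3 and 218.9 CPM in wild-type libraries and fell (-0.27, SE 0.082, edgeR adjusted p = 0.040). Plk1 too did not pass when Smg6-deficient replicate 1 or replicate 2 was left out (edgeR adjusted p of 0.160 and 0.420) or with no filter (0.071). Aurkb, the kinase of the chromosomal passenger complex, averaged 86.2 ± 5.22 CPM in Smg6-deficient and 91.2 ± 5.03 CPM in wild-type cells with overlapping libraries (-0.082, SE 0.087). Cdc20, the activator of the anaphase-promoting complex, had 273.3 and 261.4 CPM in Smg6-deficient and 251.5 and 235.9 CPM in wild-type libraries. It did not pass (log2 fold change 0.13, SE 0.082, edgeR adjusted p = 0.234). By mean RPKM over the 4 libraries Cdc20 was the highest of the 40 genes. In the wild-type libraries Ccnb2 was higher, at 130.8 and 109.9 RPKM against 119.6 and 105.3 RPKM for Cdc20. Mki67, the proliferation antigen of dividing cells, had 519.3 and 547.2 CPM in Smg6-deficient libraries, which lay between the wild-type values of 427.3 and 730.3 CPM. Its log2 fold change of -0.12 (SE 0.23) became 0.30 without wild-type replicate 2 and -0.44 without wild-type replicate 1, each past the threshold (edgeR adjusted p = 0.012 and 0.0015), so its direction rested on 1 wild-type library. Ccng2, a cyclin G linked to growth arrest, had 16.1 and 18.8 CPM in Smg6-deficient and 25.0 and 23.4 CPM in wild-type libraries and fell (-0.47, SE 0.11, edgeR adjusted p = 0.016), although not without Smg6-deficient replicate 1 (edgeR adjusted p = 0.167).

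Of the 20 members called, 7 kept their direction and their call under all 17 alternatives: Ccnd3, Cdk2, Cdk6, E2f3, E2f5, Cdk1 and Aurka. Of these, Cdk6 rose and the other 6 fell. All 7 are protein-coding genes, annotated in GENCODE M21 (GRCm38) with Cdk6 at chr5:3341485-3531008, Ccnd3 at chr17:47505051-47599691, Cdk2 at chr10:128697939-128705031, E2f3 at chr13:29906575-29986063, E2f5 at chr3:14578641-14606309, Cdk1 at chr10:69335146-69352938 and Aurka at chr2:172356190-172370535. With limma-trend on log2(RPKM + 1), 1 of the 40 rose and 10 fell. In that fit 2700 of all 20895 tested genes rose and 3147 fell, against 4285 and 4004 in the edgeR test. Of the 20 called members, Ccnd2, Ccne1, E2f1, E2f2, E2f4, E2f7, Ccnb2, Cdc25b, Plk1 and Ccng2 did not pass in that fit. All of these but Ccng2 also did not pass with limma-trend on log2(RPKM + 0.1).

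Wider lists of cell cycle genes, without the 40, were described in the same way. Of 47 genes of a G2/M signature 5 rose (10.6%) and 16 fell (34.0%), against 20.5% and 19.2% of all tested genes, with a median log2 fold change of -0.11. Nusap1, a spindle microtubule protein, averaged 163.4 ± 0.46 CPM in Smg6-deficient and 283.7 ± 10.2 CPM in wild-type cells and fell, with a log2 fold change of -0.80 (SE 0.078, edgeR adjusted p = 0.00069). Cdca2 and Cdca3, both cell division cycle associated genes, had log2 fold changes of -0.63 and -0.58. In the other direction, Rangap1, the activating protein of the Ran GTPase, rose by 0.66 on the log2 scale (SE 0.086, edgeR adjusted p = 0.0018), and the microtubule-associated genes Psrc1 and Gtse1 rose by 0.40 and 0.39. Fewer of these genes rose and fewer fell in the fits without Smg6-deficient replicate 1 or without replicate 2. More rose and more fell without wild-type replicate 1. The numbers over all tested genes moved the same way in each of these fits.

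Genes of an S-phase signature moved in both directions. Of 43, 5 rose and 7 fell, together 27.9% against the 39.7% of all tested genes, with a median log2 fold change of -0.023. Atad2, a chromatin ATPase, rose by 0.61 on the log2 scale, Tyms, the thymidylate synthase, by 0.59 and Ubr7 by 0.48. Mcm6, a subunit of the replicative helicase, averaged 408.7 ± 17.0 CPM in Smg6-deficient and 563.4 ± 10.1 CPM in wild-type cells and fell (log2 fold change -0.46, SE 0.083, edgeR adjusted p = 0.0057). Rrm2, the ribonucleotide reductase subunit, and Gmnn, the licensing inhibitor geminin, had log2 fold changes of -0.43 and -0.39. These counts moved with single libraries. Fewer rose and fewer fell in the fits without Smg6-deficient replicate 1 or without replicate 2. More rose and more fell in those without wild-type replicate 1 or without wild-type replicate 2. The numbers over all tested genes moved the same way in each of these fits.

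Among 49 tested genes of 50 listed as other regulators of the cycle, 6 rose (12.2%) and 14 fell (28.6%), with a median of -0.11. The share called in either direction, 40.8%, was close to the 39.7% of all tested genes. Anapc1, a scaffold subunit of the anaphase-promoting complex, rose by 0.67 on the log2 scale, while Anapc10, a subunit of the same complex, fell (log2 fold change -0.78). Mybl2, the Myb factor of mitotic gene transcription, rose by 0.56 and Espl1, the separase that cuts cohesin, by 0.38. Pttg1, the securin that holds separase inactive, averaged 25.3 ± 0.13 CPM in Smg6-deficient and 41.8 ± 0.64 CPM in wild-type cells and fell, with a log2 fold change of -0.72 (SE 0.083, edgeR adjusted p = 0.0011). Ccnb3, a meiotic cyclin on chromosome X, had a log2 fold change of -1.84 from 26 and 25 counts in Smg6-deficient and 84 and 91 counts in wild-type libraries. Fewer genes of this list rose and fewer fell in the fits without Smg6-deficient replicate 1 or without replicate 2. More rose and more fell without wild-type replicate 1. The numbers over all tested genes moved the same way in each of these fits.

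**Figure D4:**
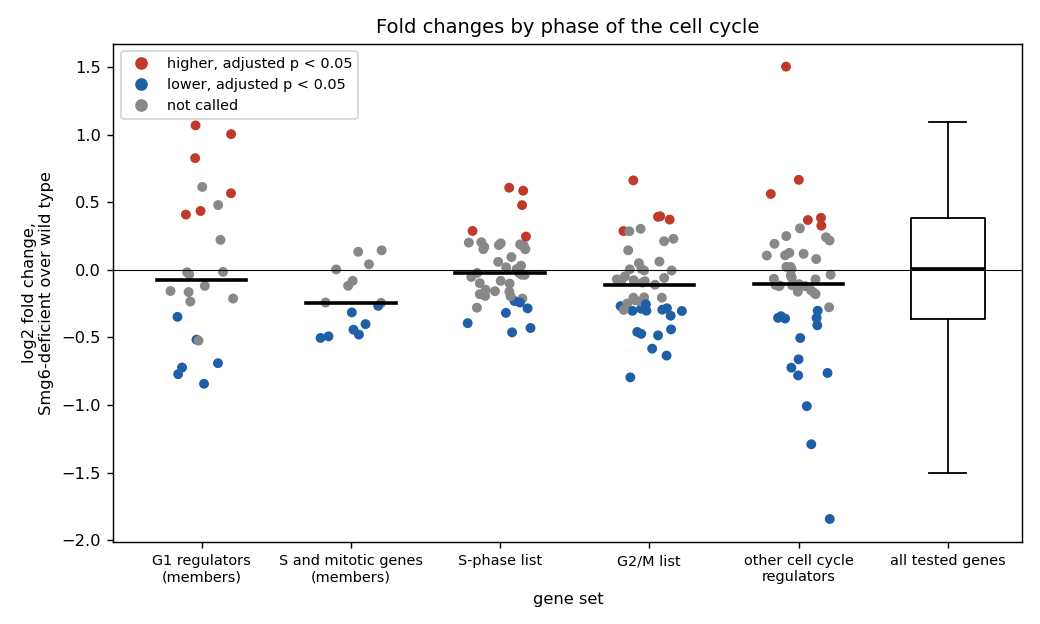
Log2 fold change, Smg6-deficient over wild type, of each tested gene (points) in the 2 classes of the 40 and in 3 wider lists, with the median as a black line, beside all tested genes (box of quartiles, whiskers at percentiles 5 and 95). The medians are -0.076 for G1 regulators, -0.25 for S and mitotic genes, -0.023 for the S-phase list, -0.11 for the G2/M list and for other regulators, and 0.0080 for all tested genes. Points are coloured by call as higher (red), lower (blue) or not called (grey).

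Since Smg6 acts in NMD, annotated NMD transcripts of the 40 genes were counted in GENCODE M21. Of the 40, 11 have at least 1 transcript of the class nonsense_mediated_decay, and E2f6 has 3. Of these 11, 2 rose (Ccne1 and E2f7), 1 fell (Plk1) and 8 did not pass, so that 27.3% were called, with a median log2 fold change of 0.0029. Of the 29 members without one, 4 rose, 13 fell and 12 did not pass, so that 58.6% were called, with a median of -0.24. Over all tested genes the share called was 39.7%. The difference between these subsets was not tested, and gene-level counts do not show which transcript a read came from.

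Reads of 50 nt that do not mark strand can be shared with other genes. Of the distinct 50-base words in the annotated transcripts of Ccnb1, 23.4% also occur, on either strand, in transcripts of other genes, chiefly the pseudogene Ccnb1-ps. The share was 21.6% for Ccnd1, whose exons overlap the opposite-strand gene LTO1, 17.1% for Rbl2 (Aktip and Gm45464), 17.0% for Cdk4 (Tspan31), 14.4% for Ccne2 (Ints8), 12.0% for Rb1 (Rcbtb2 and Lpar6), 11.9% for Cdc25c (chiefly Gm3550) and 11.4% for Ccna2 (Exosc9). It was 10.6% for Cdc20 and 10.4% for Plk1, with the pseudogenes Gm7856 and Plk-ps1 as the main partners. Cdk1, Aurka, Ccnb2, Wee1, E2f3, E2f4 and E2f5 shared no such word with another annotated gene. Cdk2 and Cdk6 shared 0.062% and 3.32% of theirs, and Ccnd3 5.39%, in part with Bysl.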

How the data were processed

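RNA-seq libraries of Smg6-deficient and wild-type mouse ES cells (2 each) were analysed at gene level. The deposited tables hold, per the file headers, a raw read count and an RPKM value for each Ensembl gene, 1 table per library. TopHat2 2.0.9 and build mm10 are named per the submitters' processing notes. The tool, annotation and strand setting behind the counts were not given in the sources used here, and the kit named in the labels makes libraries without strand information. The deposited RPKM values imply other library totals than the summed counts. They were used for levels between genes, for shares, for summed family levels and in an alternative test. Summed RPKM set side by side between libraries depends on those totals.

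Genes passing edgeR's filterByExpr (minimum count 10) entered TMM scaling and the quasi-likelihood test of edgeR 4.0.16 (glmQLFit, glmQLFTest, R 4.3.3) over all 20895 genes, with Benjamini-Hochberg adjustment and a threshold of 0.05. The procedure was tested on simulated data. Alternatives used other scaling, filters of none or 50 counts in 2 libraries, DESeq2 1.42.0, limma 3.58.1 (voom on counts, and limma-trend on log2(RPKM + 1) or log2(RPKM + 0.1)), a replicate block, a correction for gene length, autosomal genes only, and each library left out. Where 1 library remained in a group, it was assumed to vary like the other group.

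The text names all 40 members, Smg6, and from each wider list up to 3 genes past the threshold in each direction with the smallest adjusted p. The members and all lists were chosen with earlier results of these data known. Symbols and NMD transcripts came from GENCODE M21, and 35449 of 37224 identifiers had a symbol. Promoter sequences came from RefSeq (GRCm38.p6).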

Additional observations from a re-analysis of the deposited data

How the results depend on the processing

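Over 17 alternatives the 40 members gave 680 log2 fold changes, of which 573 kept their direction and side of the threshold, while 37 lost a call, 45 gained one and 25 turned direction. With limma-trend on log2(RPKM + 1) or log2(RPKM + 0.1), 1 member, a G1 regulator, rose, as did 2 genes of the S-phase list and 2 of the G2/M list, and 2 of the S-phase list fell. Over all tested genes 2700 and 2643 rose and 3147 and 3214 fell in these fits, against 4285 and 4004 in the main edgeR test. The S-phase list had 3 genes that rose with library size alone, with the gene length correction and with that correction plus the replicate block. In it 3 fell with no filter, 13 with the length correction and 15 with the correction and block. In the G2/M list 3 rose with upper-quartile factors, library size alone, the filter of 50 counts or the length correction, and 25 fell with the correction and block. Leaving out 1 library at a time gave 4 to 9 members that rose and 7 to 19 that fell. The S and mitotic class had 0 to 1 that rose and 2 to 9 that fell, the S-phase list 2 to 13 and 0 to 11, the G2/M list 1 to 9 and 4 to 20, and other regulators 3 to 10 and 6 to 17. The cause of these differences was not tested. The fits that leave 1 library out also hold fewer libraries. Over all tested genes fewer rose and fewer fell in those that lack a Smg6-deficient library. More rose and more fell in those that lack a wild-type library.

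Replicate numbers are shared between the groups, but only 2 pairs exist and the labels tie the numbers to nothing else, with a correlation of 0.155 between the deviations of same-numbered libraries. With the replicate block, 8 members rose and 16 fell.

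Of the members whose direction turned, Ccnf was -0.0073 with DESeq2 size factors and by the DESeq2 Wald test, -0.033 with upper-quartile factors, -0.054 with library size alone, -0.040 with the filter of 50 counts, -0.041 and -0.042 with limma-trend, -0.069 with the length correction with or without the block, and -0.018 with autosomal genes only. Pkmyt1 was -0.016 with library size alone, -0.0021 with the filter of 50 counts, and -0.0035 and -0.0041 with limma-trend.
With 1 library left out, the log2 fold changes ranged for Ccne2 from -0.13 to 0.064, for Cdk4 from -0.12 to 0.093, for Cdkn2a from -0.37 to 0.081, for E2f6 from -0.11 to 0.069, for Ccnf from -0.017 to 0.022, for Pkmyt1 from -0.013 to 0.11 and for Mki67 from -0.44 to 0.30.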
